A study of Mus musculus with 8 samples.

Results

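Phagocytic macrophages and activated microglia carry a shared set of transcripts, and 10 of these genes were followed in peripheral mouse retina taken at postnatal day 12. They were Mmp12, Spp1, Gpnmb, Lgals3, Atp6v0d2, Itgax, Msr1, Mrc1, Ms4a7 and Cybb, taken by symbol from the 23284 genes counted. Microglia are the resident macrophages of the retina, where they clear dying cells and synapses. When they take up debris in disease or development, they lower some resting genes and raise genes for lysosomes, lipid handling and secreted matrix proteins, among which Spp1, Gpnmb, Lgals3 and Itgax are widely used marks. Mmp12 and the receptors of the set are also used as marks of macrophages in other tissues.

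The study compared 4 libraries whose genotype label reads Rb null, TET-MYCN (here TET-MYCN) with 4 libraries whose label reads Rb null (here Rb-null), all made from oligo-dT selected RNA of microdissected tissue. In both groups Cre recombinase was driven by the alpha enhancer of Pax6, which is active in progenitors of the peripheral retina and not in microglia. The Rb-null mice carried floxed Rb1, the retinoblastoma tumour suppressor gene. The TET-MYCN mice carried Rosa26LSL-RTTA, a Cre-dependent tetracycline transactivator, and TRE-MYCN, the transgene that answers to it. The design text leaves the floxed allele out for these mice, although their label includes Rb null, and the labels name no doxycycline. The set was chosen with this comparison in view, so the members' differences are given as a description, with no test.

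Counts assigned to genes were 16166000 to 22873979 per TET-MYCN library and 14872131 to 20007977 per Rb-null library. A count of 3 was worth 0.130 to 0.202 CPM, the counts per 1000000 gene counts after TMM scaling. Of 15106 genes tested with edgeR's quasi-likelihood test, 9 (0.0596%) passed an adjusted p of 0.05 in either direction. That count was 17 with no filter on low counts, 0 with limma-voom and 536 with DESeq2, 0 or 1 without any 1 of the Rb-null libraries, TET-MYCN 1 and TET-MYCN 4, 132 without TET-MYCN 2 and 230 without TET-MYCN 3. Retinal markers (7 of 7 detected) summed to 2536 to 4755 CPM in TET-MYCN libraries and 3223 to 10154 CPM in Rb-null libraries, and 10 lens genes summed to 11.3 to 54.1 CPM in TET-MYCN libraries and 23.6 to 557 CPM in Rb-null libraries. The labels do not say that each library came from its own animal, so the spread given here is between libraries.

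The sequence before the start site could be read for 8 of the 10 genes in RefSeq (GRCm38.p6), in 11 windows from 250 bases before to 50 bases after a start site. They were searched on both strands for TGACTCA, the site of AP-1 factors, GAGGAAGT, a site of the myeloid factor PU.1, CACGTG, the E-box of MITF and TFE factors, and CATGTG, the core of the M-box. TGACTCA or its reverse complement, TGAGTCA, stood in windows of 3 genes, and 5.20% of all 32851 mouse windows hold it. GAGGAAGT or its reverse complement stood in windows of 2 genes (3.20% of all windows). CATGTG or its reverse complement stood in windows of Mmp12, Mrc1 and Ms4a7 (14.2% of all windows), and CACGTG in 0 of the 11 (7.15% of all windows). Below are the 5 windows with an AP-1 or PU.1 match, since they belong to Mmp12, Spp1 and Gpnmb, which differed widely between the groups, and to Itgax. Capitals mark the matches of the 4 motifs.
Mmp12, chr9:7347124-7347423, + strand: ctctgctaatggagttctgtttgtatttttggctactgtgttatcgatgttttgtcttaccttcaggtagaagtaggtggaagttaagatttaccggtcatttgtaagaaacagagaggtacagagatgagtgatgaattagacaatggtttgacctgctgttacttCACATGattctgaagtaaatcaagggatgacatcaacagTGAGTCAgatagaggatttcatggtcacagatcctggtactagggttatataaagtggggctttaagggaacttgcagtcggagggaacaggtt
Itgax, chr7:128129300-128129599, + strand: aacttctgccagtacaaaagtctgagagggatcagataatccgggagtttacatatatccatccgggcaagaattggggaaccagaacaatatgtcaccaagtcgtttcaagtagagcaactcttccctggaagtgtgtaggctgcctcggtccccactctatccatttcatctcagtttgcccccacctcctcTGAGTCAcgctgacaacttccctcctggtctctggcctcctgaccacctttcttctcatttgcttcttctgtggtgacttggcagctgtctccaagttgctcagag
Gpnmb, chr6:49036268-49036567, + strand: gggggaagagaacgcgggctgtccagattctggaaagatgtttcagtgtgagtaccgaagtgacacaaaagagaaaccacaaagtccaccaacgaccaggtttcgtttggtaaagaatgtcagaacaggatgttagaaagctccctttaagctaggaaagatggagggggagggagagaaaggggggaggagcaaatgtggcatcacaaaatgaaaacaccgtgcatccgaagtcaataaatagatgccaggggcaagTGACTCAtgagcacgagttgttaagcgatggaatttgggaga
Mmp12, chr9:7344147-7344446, + strand: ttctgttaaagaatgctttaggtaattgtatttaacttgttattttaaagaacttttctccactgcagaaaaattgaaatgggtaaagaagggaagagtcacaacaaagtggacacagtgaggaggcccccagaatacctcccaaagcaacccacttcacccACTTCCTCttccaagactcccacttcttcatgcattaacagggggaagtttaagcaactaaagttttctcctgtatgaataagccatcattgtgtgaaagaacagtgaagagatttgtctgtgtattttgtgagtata
Spp1, chr5:104434861-104435160, + strand: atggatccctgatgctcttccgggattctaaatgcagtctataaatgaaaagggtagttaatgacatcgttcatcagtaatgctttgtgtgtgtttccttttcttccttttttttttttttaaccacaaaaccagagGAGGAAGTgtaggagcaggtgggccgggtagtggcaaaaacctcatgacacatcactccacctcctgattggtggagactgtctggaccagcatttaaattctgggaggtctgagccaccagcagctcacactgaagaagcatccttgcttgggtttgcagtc
In the window of Mmp12 on chromosome 9 that starts at 7347124, the AP-1 letters begin 44 bases before the start site and CACATG begins 83 bases before it. The AP-1 letters begin 56 bases before the start site of Itgax, and they begin at base 9 after the start site of Gpnmb. The PU.1 letters begin 88 bases before the other start site of Mmp12 and 113 bases before that of Spp1. These are matches of letters in windows of a build other than the one the reads were aligned to, and no binding was measured.

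Of the 3 secreted proteins in the set, Mmp12 and Spp1 had the largest fitted differences of all members and Lgals3 the smallest. Mmp12, the macrophage metalloelastase, which cuts elastin and other matrix proteins, had 20.5, 1.73, 12.98 and 24.6 CPM in TET-MYCN libraries 1 to 4, against 0.153, 0.121, 0.196 and 0.135 CPM in Rb-null libraries 1 to 4. TET-MYCN 2 was far below the other TET-MYCN libraries, yet above every Rb-null library. The Rb-null values rest on 2 or 3 counts per library, so the ratio of summed scaled counts, 93.9, has a 95% counting interval of 50.9 to 196 (exact binomial). On the log2 scale the fitted difference was 6.56 ± 0.87 (SE). Spp1, which codes for osteopontin, a matrix phosphoprotein that binds integrins and CD44, had 265, 18.7, 105 and 401 CPM in TET-MYCN libraries 1 to 4, against 5.14, 5.83, 3.67 and 6.99 CPM in the Rb-null libraries. The groups did not overlap, and the means were 198 ± 170 CPM in TET-MYCN and 5.41 ± 1.39 CPM in Rb-null libraries (SD, n = 4 each; log2 fold change 5.19 ± 0.81). Lgals3, the sugar-binding lectin galectin-3, had 20.3, 7.78, 19.7 and 26.6 CPM in TET-MYCN libraries, against 6.56, 7.22, 6.16 and 7.40 CPM in Rb-null libraries. TET-MYCN 2 exceeded the highest Rb-null library only narrowly, and the log2 fold change was 1.44 ± 0.31.

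Gpnmb and Atp6v0d2, members whose products sit in lysosomes and related vesicles, also differed widely between the groups. Gpnmb, a glycoprotein of lysosomes and melanosomes, had 82.7, 13.02, 27.4 and 121 CPM in TET-MYCN libraries 1 to 4, against 4.73, 5.04, 4.78 and 4.77 CPM in the Rb-null libraries. All 4 TET-MYCN libraries were above an Rb-null group that was nearly flat, at 60.9 ± 49.8 against 4.83 ± 0.140 CPM (log2 fold change 3.65 ± 0.62). Atp6v0d2, the d subunit of the proton pump in osteoclasts and macrophages, had 85, 12, 29 and 85 counts in TET-MYCN libraries, against 3, 3, 0 and 3 counts in Rb-null libraries. It did not pass the filter on low counts and has no fitted value in the main fit. Its groups did not overlap, and the ratio of summed scaled counts was 20.2 (95% counting interval 10.4 to 44.7, exact binomial).

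**Figure D1:**
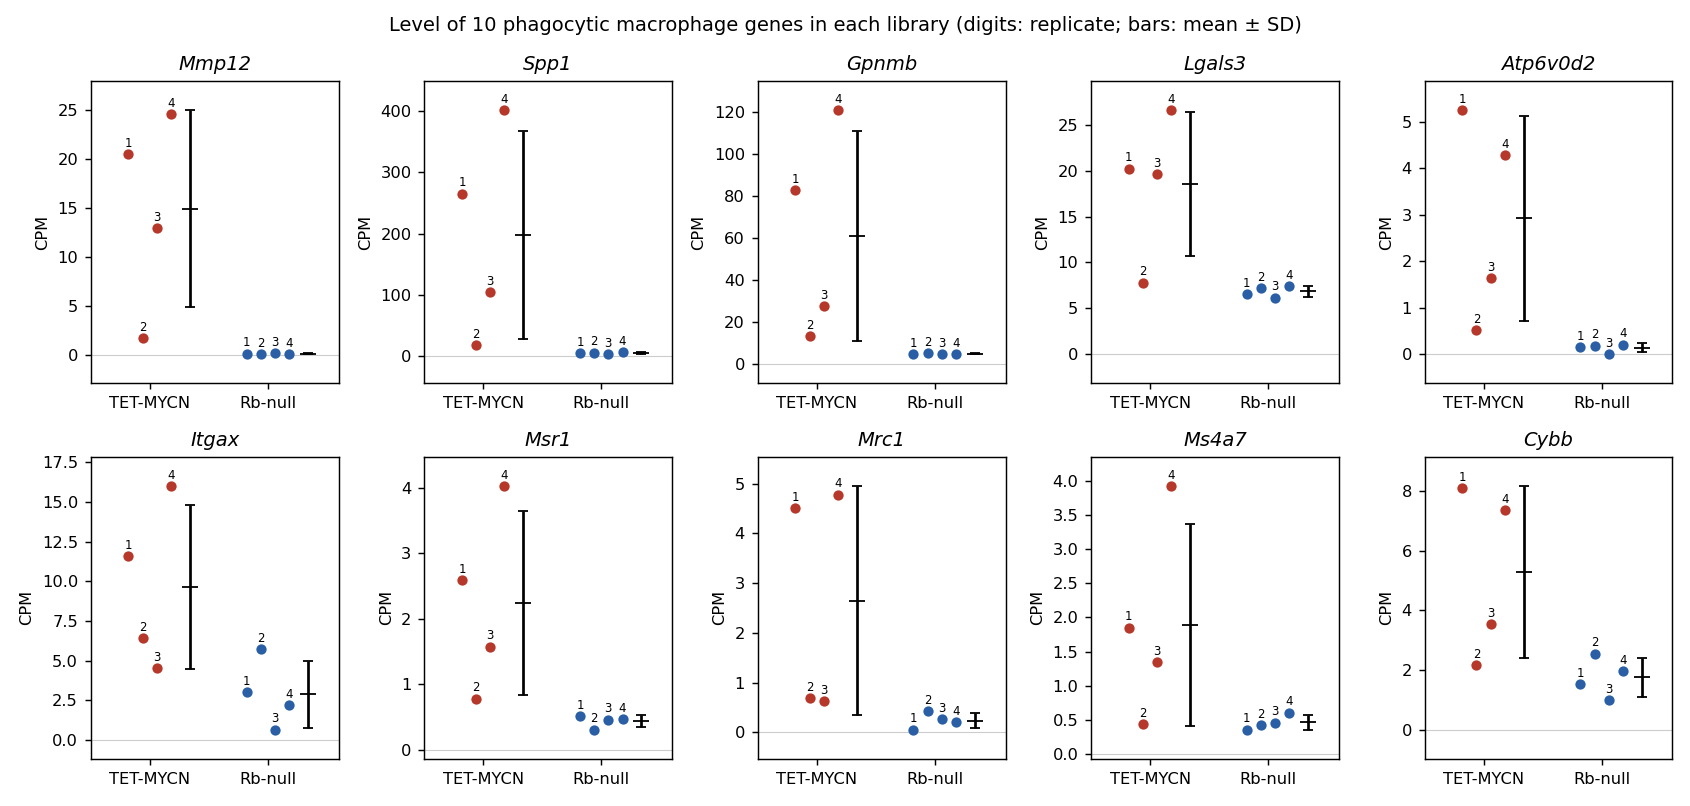
Level of each of the 10 genes in CPM, 1 panel per gene and 1 point per library, with TET-MYCN libraries left of Rb-null libraries, digits giving the replicate number and bars for the mean and SD. TET-MYCN 1 and 4 are the 2 highest points in all 10 panels, and each panel has its own scale.

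Among the surface receptors, 2 of 4 had groups that overlapped. Msr1, a class A scavenger receptor for modified lipoproteins and debris, had 2.59, 0.778, 1.57 and 4.03 CPM in TET-MYCN libraries 1 to 4, against 0.509, 0.304, 0.458 and 0.471 CPM in Rb-null libraries. The groups did not overlap (log2 fold change 2.34 ± 0.51). Mrc1, the mannose receptor CD206, had 73, 16, 11 and 95 counts in TET-MYCN libraries, against 1, 7, 4 and 3 counts in Rb-null libraries. The groups did not overlap (log2 fold change 3.48 ± 0.85). Scaled, the lowest TET-MYCN library stood at 0.618 CPM and the highest Rb-null library at 0.425 CPM, and the ratio of summed scaled counts was 11.2 (95% counting interval 6.62 to 20.4, exact binomial). Ms4a7, a four-pass membrane protein found on macrophages at the borders of the brain, had 1.85, 0.432, 1.35 and 3.93 CPM in TET-MYCN libraries, against 0.356, 0.425, 0.458 and 0.605 CPM in Rb-null libraries. Here TET-MYCN 2 lay within the Rb-null range (log2 fold change 2.03 ± 0.60). Itgax, the integrin alpha chain CD11c, had 11.6, 6.44, 4.55 and 16 CPM in TET-MYCN libraries, against 3.003, 5.71, 0.655 and 2.22 CPM in Rb-null libraries. It was the only member for which TET-MYCN 3 fell below an Rb-null library, and its log2 fold change was 1.73 ± 0.56.

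Cybb, the catalytic subunit of the phagocyte NADPH oxidase, which makes superoxide, had 8.09, 2.16, 3.54 and 7.35 CPM in TET-MYCN libraries 1 to 4, against 1.53, 2.55, 0.982 and 1.95 CPM in Rb-null libraries. TET-MYCN 2 lay within the Rb-null range, and the means were 5.28 ± 2.88 CPM in TET-MYCN and 1.75 ± 0.663 CPM in Rb-null libraries (SD, n = 4 each; log2 fold change 1.58 ± 0.44).

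Across the set, all 10 genes had the higher mean in the TET-MYCN libraries. Every TET-MYCN library was above every Rb-null library for 7 of 10, and for 6 of the 9 that passed the filter on low counts. Among all genes tested 4.36% had that pattern, and 3.62% of the 19713 genes with any read. Of the 9, 1 (Mmp12) passed the adjusted p of 0.05 as higher, against 0.053% of all genes tested. By DESeq2 all 10 passed (3.22% of genes), by limma-voom and with no filter on low counts (0.0862% of genes) 0 did, and 0 did without any 1 of the Rb-null libraries, TET-MYCN 1 and TET-MYCN 4. Without TET-MYCN 2, 7 passed (0.87% of genes), and without TET-MYCN 3, Mmp12, Spp1 and Gpnmb did (1.52% of genes). The filter was applied anew in each fit, and the 7 include Atp6v0d2, which is not among the 9. Nothing is read from these shares, since the set was chosen from this comparison.

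**Figure D2:**
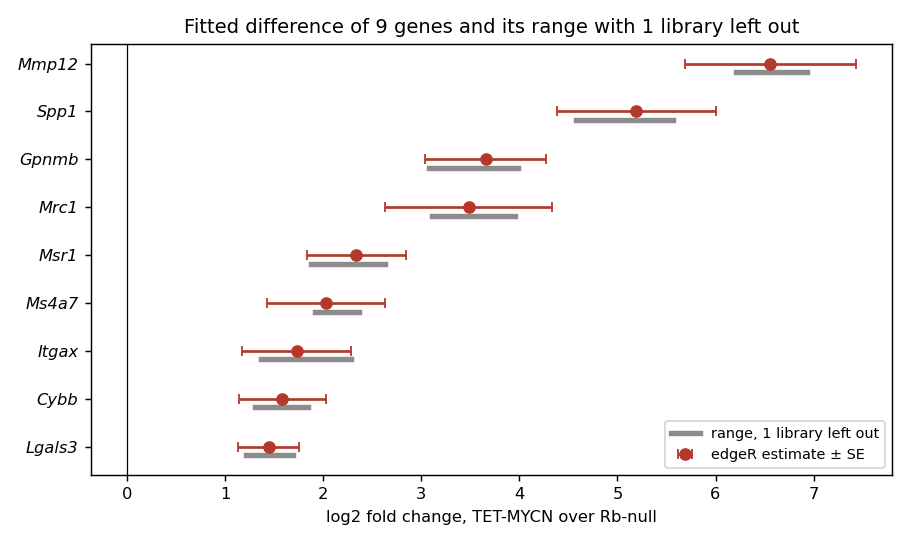
Log2 fold change, TET-MYCN over Rb-null, of the 9 genes that passed the filter on low counts. Thin bars are 1 SE, derived from edgeR's F statistic, and thick grey bars are the range with 1 library left out. Mmp12 is farthest from 0 at 6.56 and Lgals3 nearest at 1.44.

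Scaled for transcript length (RPKM, with the gene's merged exons as its length), Spp1 was the most abundant member in TET-MYCN libraries, at a mean of 119.9 RPKM. Lgals3 and Gpnmb followed at means of 10 and 9.35 RPKM, Mmp12 and Itgax at 2.06 and 2.01 RPKM, and Atp6v0d2 and Cybb at 1.07 and 0.910 RPKM. Ms4a7, Mrc1 and Msr1 were lowest, at 0.354 to 0.424 RPKM. In Rb-null libraries the order of mean levels began with Lgals3 at 3.68 RPKM and Spp1 at 3.28 RPKM, and Mmp12 came last at 0.0209 RPKM. Below Spp1, neighbours in the TET-MYCN order had overlapping ranges of mean ± SD. Those ranges ignore that the genes were read in the same libraries, so they cannot settle the order, which was not tested.

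The TET-MYCN libraries differed strongly among themselves, and in the same order for most members. TET-MYCN 1 and 4 were the 2 highest of the 8 libraries for all 10 genes. The highest value was in TET-MYCN 4 for 8 genes and in TET-MYCN 1 for Atp6v0d2 and Cybb. Within the group the lowest value was in TET-MYCN 2 for 8 genes and in TET-MYCN 3 for Itgax and Mrc1. From the lowest to the highest TET-MYCN library the level spanned 3.42-fold for Lgals3 and 21.4-fold for Spp1, against 1.20-fold and 1.91-fold among Rb-null libraries. The spread was wider among Rb-null libraries for Itgax, at 3.52-fold in TET-MYCN and 8.71-fold in Rb-null libraries. For Mrc1 it was 7.74-fold in TET-MYCN and 8.35-fold in Rb-null libraries. The Rb-null span of Mrc1 rests on 1 to 7 counts per library, so these 2 spans cannot be ranked. Atp6v0d2, with 0 counts in Rb-null 3, has no Rb-null span. Summed over the members, the level was 422.6, 52.3, 178 and 613 CPM in TET-MYCN libraries 1 to 4, against 17.6 to 27.8 CPM in Rb-null libraries. Across the 8 libraries, each gene's log2 CPM had a Pearson r of 0.80 (Itgax) to 0.99 (Spp1) with the mean of the other 9, which includes the difference between groups.

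**Figure D3:**
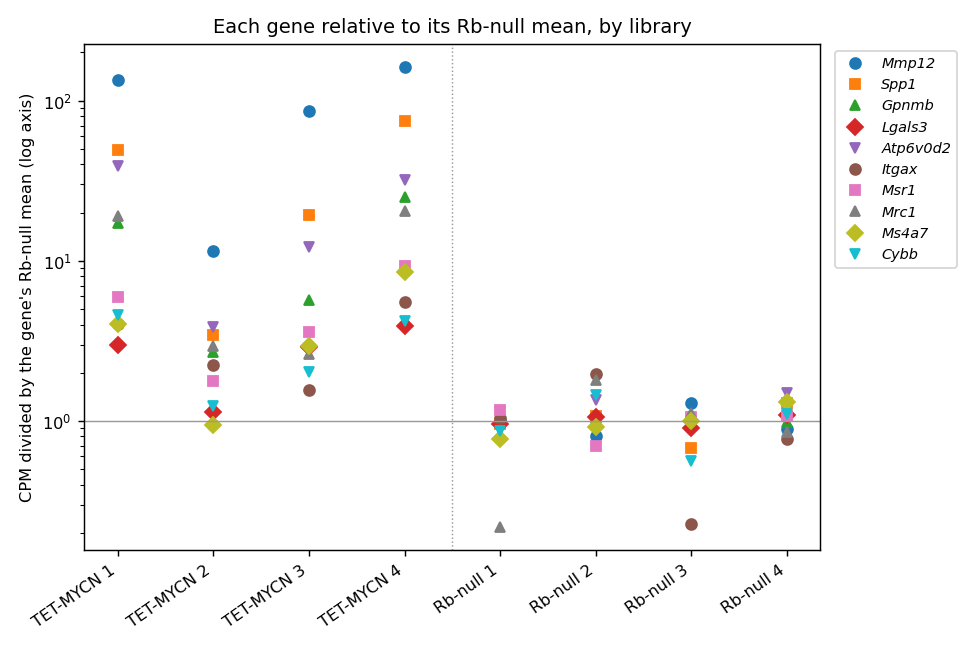
Level of each gene in each library relative to that gene's mean over the Rb-null libraries, on a log axis, with 1 symbol per gene and TET-MYCN libraries on the left. The symbols lie low at TET-MYCN 2, between 0.938 and 11.4, and high at TET-MYCN 1 and 4. Atp6v0d2 has no point in Rb-null 3, where it had 0 counts.

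Summed transcripts of resident microglia and of macrophages in general, none of them a member, stood at overlapping levels in the groups. The sum of 13 markers of resident microglia was 194.5, 189.7, 278 and 256 CPM in TET-MYCN libraries 1 to 4, against 234, 299, 171 and 234 CPM in Rb-null libraries. The groups overlapped, with a difference of -4.85 CPM (95% interval -109.3 to 106.8, two-sided exact permutation test, p = 0.943, adjusted p = 0.943 over 2 sums, smallest possible 0.0286). The sum of 19 markers shared by macrophages was 490 ± 155 CPM in TET-MYCN and 503 ± 164 CPM in Rb-null libraries (SD, n = 4 each; difference -12.9 CPM, interval -375.8 to 320.9, exact permutation p = 0.943). These intervals leave room for differences of some size in either direction. Without any 1 of Rb-null 2, TET-MYCN 1 and TET-MYCN 2, each difference was positive, up to 16.7 CPM for the first sum and 56.5 CPM for the second. In bulk tissue, fewer cells of a type and less of its RNA per cell cannot be told apart.

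**Figure D4:**
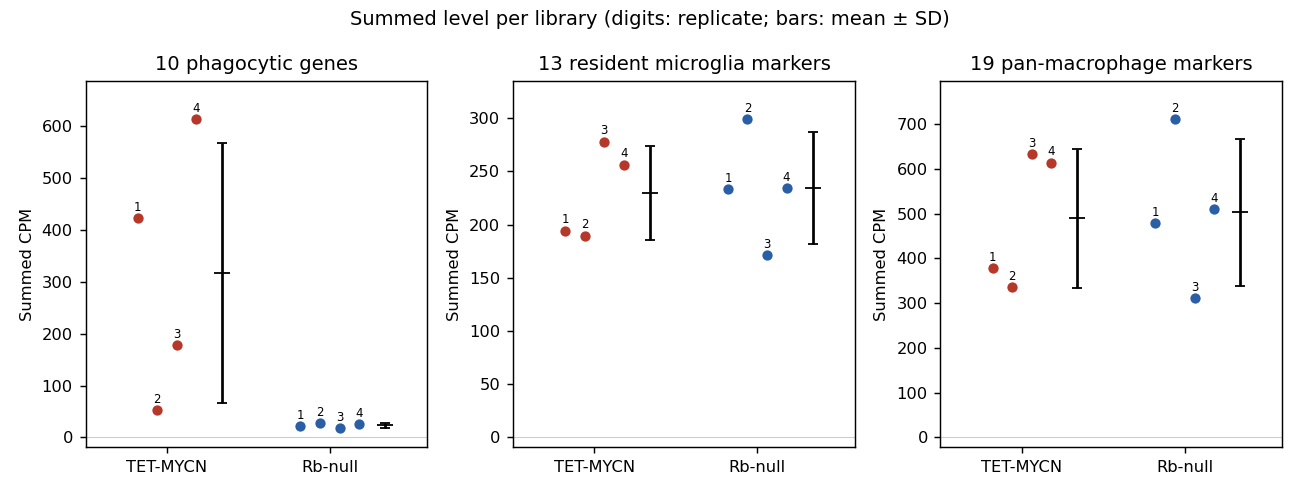
Summed CPM per library of the 10 genes, of 13 resident microglia markers and of 19 pan-macrophage markers, with TET-MYCN libraries left of Rb-null libraries and bars for the mean and SD. The members' sums are 52.3 to 613 CPM against 17.6 to 27.8 CPM, while both marker sums overlap between groups.

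Per 100 CPM of the 19 macrophage markers, the members summed to 112, 15.6, 28.2 and 99.9 CPM in TET-MYCN libraries 1 to 4, against 4.63, 3.91, 5.65 and 4.90 CPM in Rb-null libraries. The groups did not overlap, and their means stood 13.4-fold apart, or 13.8-fold per level of resident markers. TET-MYCN 1 and 2 had near levels of the resident markers, and their summed member levels were 422.6 and 52.3 CPM. Across the 8 libraries the members' log2 CPM had a Pearson r of 0.04 (Mrc1) to 0.38 (Itgax) with the log2 sum of the macrophage markers. Within the Rb-null group both marker sums were highest in Rb-null 2 and lowest in Rb-null 3, and 4 members were highest in Rb-null 2 and 5 lowest in Rb-null 3, with Itgax and Cybb showing both.

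Single macrophage genes went both ways. Of the resident markers 13 were tested, 6 positive and 7 negative, and their median log2 fold change was -0.08 (0.01 over all genes tested). Among them Cx3cr1, the fractalkine receptor, had 0.11 ± 0.20, Siglech, a sialic acid-binding lectin, -0.83 ± 0.36, and Slc2a5, a fructose transporter, 0.67 ± 0.27, with adjusted p of 0.837, 0.304 and 0.276 (edgeR). Slc2a5 was the 1 gene of that list with every TET-MYCN library above every Rb-null library. P2ry12, the nucleotide receptor that marks resting microglia, was named after its values were seen, at 2.53, 5.15, 11.2 and 5.39 CPM in TET-MYCN libraries against 8.09, 9.90, 8.78 and 8.27 CPM in Rb-null libraries. It was lowest in TET-MYCN 1 and overlapped between groups through TET-MYCN 3 (log2 fold change -0.53, adjusted p = 0.4999). In the pan-macrophage list 12 of 19 were positive and 7 negative, with a median of 0.04. Cd68, a lysosomal glycoprotein of macrophages, had 0.61 ± 0.27 and Fcgr3, an IgG receptor, 0.59 ± 0.30, whereas C1qa, a complement subunit, had -0.03 ± 0.32 (adjusted p = 0.308, 0.371 and 0.981, edgeR).

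Genes that usually accompany the members in disease-associated microglia were positive in 18 of 24 cases (52.2% of all genes tested were positive), and their median was 0.33 on the log2 scale. None passed by edgeR, 6 were higher and 2 lower at an unadjusted p under 0.05, and all genes tested had 8.06% higher and 7.72% lower at that level. Apoe, Ctsd and Ctsb, which code for a lipid carrier and a pair of lysosomal proteases, had log2 fold changes of 0.01, -0.01 and 0.01. Their TET-MYCN means were 2318, 763 and 479 CPM, against 490 CPM for the summed pan-macrophage markers. Apoe is also on the list of Müller glia and astrocyte markers, and the part of microglia in these levels was not tested. Fabp5, a fatty acid-binding protein, had 0.48 ± 0.21. Plin2, the coat protein of lipid droplets, was above every Rb-null library in every TET-MYCN library, and its fitted difference was 0.67 ± 0.20 on the log2 scale (edgeR, adjusted p = 0.198). Lilrb4, an inhibitory receptor of myeloid cells with a near-identical neighbour gene, had 3.15, 0.692, 1.46 and 3.47 CPM in TET-MYCN libraries against 0.509, 0.850, 0.131 and 0.673 CPM in Rb-null libraries. Its order among TET-MYCN libraries was that of most members, with 4 highest and 2 lowest, and its log2 fold change was 1.99 ± 0.58 (adjusted p = 0.186). Trem2, the lipid-sensing receptor upstream of this programme, was named after its values were seen, at 17.4 ± 8.17 CPM in TET-MYCN and 14.0 ± 5.89 CPM in Rb-null libraries (adjusted p = 0.746).

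Among proton pump subunits, NADPH oxidase genes, and integrin partners and osteopontin receptors, 0 passed by edgeR, and DESeq2 called 1, Itga9, as lower. The other subunits of the proton pump had 4 positive and 15 negative log2 fold changes, with a median of -0.21. Atp6v0d1, the broadly expressed form of the d subunit, named after its values were seen, had 164 ± 26.8 CPM in TET-MYCN and 178 ± 12.3 CPM in Rb-null libraries (SD, n = 4 each). All 7 other NADPH oxidase genes tested had positive log2 fold changes (median 0.41), and 0 passed. Cyba, which binds the product of Cybb in the membrane, had 0.53 ± 0.22 (adjusted p = 0.280, edgeR). Itgb2, the beta chain that pairs with the product of Itgax, was named after its values were seen and had 11.7, 5.88, 7.92 and 15.8 CPM in TET-MYCN libraries against 6.87, 9.05, 3.60 and 5.58 CPM in Rb-null libraries. The groups overlapped, and the log2 fold change was 0.71 ± 0.34 (adjusted p = 0.345).

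Among 12 integrin partners and osteopontin receptors tested, 8 were positive and 4 negative, and their median log2 fold change was 0.27. Itgb1, a beta chain that many osteopontin-binding integrins share, was higher in every TET-MYCN library than in every Rb-null library, at 0.32 ± 0.11, and Itga9, an alpha chain that binds osteopontin, was lower in every one (as in 3.29% of all genes tested), at -0.65 ± 0.16 (adjusted p = 0.227 and 0.158, edgeR). Of 17 other metalloproteinases and their inhibitors, 12 were positive and 5 negative, with a median of 0.17. Timp1, an inhibitor of metalloproteinases, had 0.87 ± 0.27 and Mmp9, a gelatinase, -0.36 ± 0.23. Of 10 other scavenger and lectin receptors, 7 were positive and 3 negative, with a median of 0.05. Mrc2, a collagen receptor related to Mrc1, had 18.9, 9.90, 6.57 and 23.0 CPM in TET-MYCN libraries against 4.94, 6.25, 5.37 and 3.97 CPM in Rb-null libraries. These groups did not overlap, and TET-MYCN 1 and 4 were again highest (log2 fold change 1.504 ± 0.363, adjusted p = 0.158). Of 15 phagocytosis receptors and bridging ligands, 9 were positive and 6 negative, with a median of 0.09.

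Of 6 other galectins and relatives, 2 were positive and 4 negative (median log2 fold change -0.22), and Lgals1, the galectin-1 gene, had 0.56 ± 0.30. Both tested relatives of Ms4a7, Ms4a6c and Ms4a6d, were positive, at 0.35 and 0.70. Mitf, Tfe3 and Tfeb, factors known to drive lysosomal genes and Gpnmb, had log2 fold changes of 0.13, -0.01 and -0.29 (adjusted p = 0.825, 0.985 and 0.398). Over all 25 lists 212 genes were tested, and 0 passed by edgeR or limma-voom, with 63 and 56 at an unadjusted p under 0.05. Of all 15106 genes tested, 2384 and 2262 were at that level. DESeq2 called 21 of 284, against 3.22% of all genes with an adjusted p. Of the 21, 7 were higher (F13a1, Acp5, Lilrb4, Mrc2, Cd36, C3 and H2-Ab1). The other 14 were lower, among them 7 lens genes, Glul, Aqp4 and Kcnj10 of Müller glia, Nefh and Kcng4 of ganglion cells, and Itga9. The Müller glia genes Glul, Aqp4 and Kcnj10 were lower in every TET-MYCN library than in every Rb-null library, at -1.26 ± 0.25, -1.08 ± 0.19 and -0.97 ± 0.15 (adjusted p = 0.132, 0.0931 and 0.0632, edgeR). Of the 9 genes tested in the Müller glia and astrocyte list, 3 were positive and 6 negative. Among these 9, 4 had every TET-MYCN library below every Rb-null library, against 3.29% of all genes tested. The list summed to 4102 to 5590 CPM in TET-MYCN and 5020 to 6670 CPM in Rb-null libraries, which overlapped. Over all 25 lists, edgeR called 1 gene (Kcnj10) with no filter on low counts (0.0862% of all genes tested). It called 4 without TET-MYCN 2 (0.87% of all genes tested) and 7 without TET-MYCN 3 (1.52%).

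**Figure D5:**
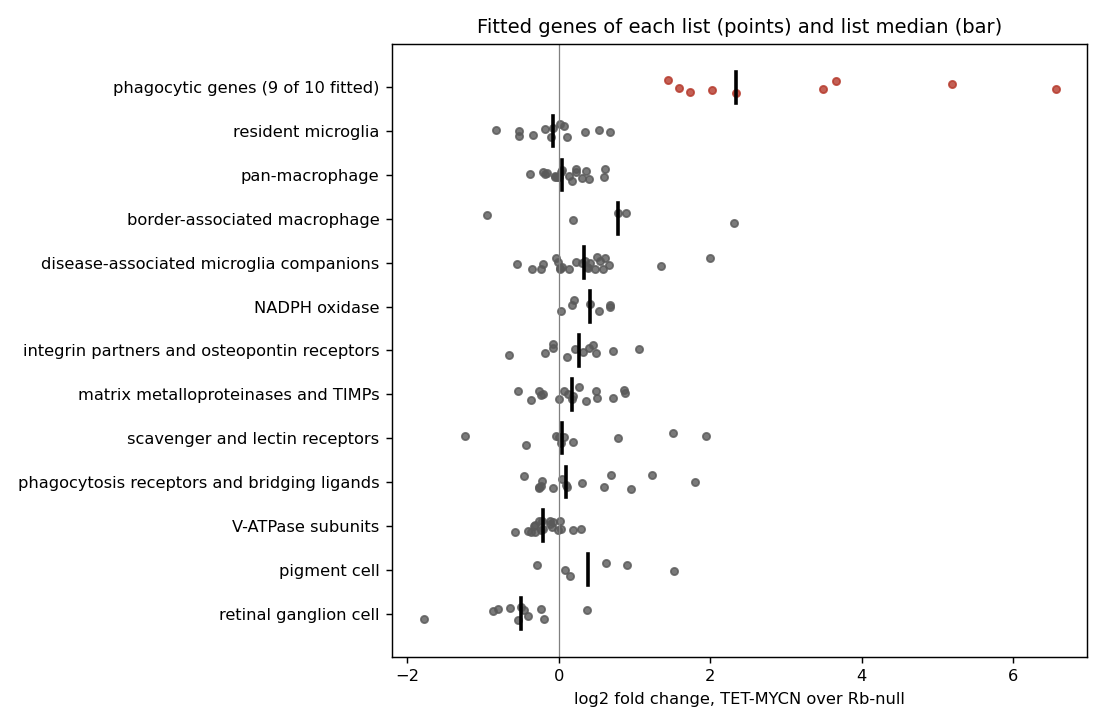
Log2 fold changes, TET-MYCN over Rb-null, of the tested genes in 12 of the lists and of the 9 tested members (top row), 1 point per gene with the median as a bar. The medians lie near 0 for resident microglia (-0.08) and pan-macrophage markers (0.04). They are 0.78 for the 5 tested border-associated macrophage markers and 0.33 for the disease-associated microglia companions.

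Several members are also made by cells other than microglia, and markers of those cells were read beside them. F13a1, a transglutaminase gene of macrophages at brain borders, had 3.64, 1.77, 1.29 and 5.33 CPM in TET-MYCN libraries against 0.662, 0.607, 0.655 and 0.471 CPM in Rb-null libraries. It was the tested gene of the border-associated list, with Mrc1 and Ms4a7 kept apart, that had the smallest p (log2 fold change 2.31 ± 0.46, adjusted p = 0.135, edgeR), and 4 of 5 in that list were positive. The 9 genes of that list summed to 30.5 to 62.7 CPM in TET-MYCN libraries and 29.5 to 43.5 CPM in Rb-null libraries. Lyve1, another mark of such cells, had -0.95 ± 0.51 (adjusted p = 0.389). Of the 8 monocyte markers, which summed to 20.3 to 84.7 CPM in TET-MYCN and 16.6 to 61.0 CPM in Rb-null libraries, nearly all of the sum was Lyz2, a lysozyme gene that microglia also make (log2 fold change 0.59 ± 0.44, adjusted p = 0.5503, edgeR). The monocyte receptor Ccr2 had no more than 0.252 CPM in any library, and Ly6c2, a surface protein of inflammatory monocytes, had 0 counts apart from 1 in Rb-null 3. The 7 osteoclast genes found summed to 14.7 to 22.5 CPM in TET-MYCN and 15.5 to 16.8 CPM in Rb-null libraries. Acp5, the osteoclast acid phosphatase, did not pass the filter and had 3.15, 0.0432, 0.843 and 5.23 CPM in TET-MYCN libraries against 0.204, 0.0607, 0.262 and 0.135 CPM in Rb-null libraries. TET-MYCN 2 did not exceed the Rb-null libraries for it. Of the 4 osteoclast genes tested 2 were positive and 2 negative, with Ctsk, a collagen-cutting protease, at 0.82 ± 0.29, Nfatc1, a transcription factor, at 0.20 ± 0.21, Mmp9 at -0.36 ± 0.23 and the receptor gene Oscar at -1.17 ± 0.42 (adjusted p = 0.237, 0.696, 0.478 and 0.240, edgeR). Every TET-MYCN library was above every Rb-null library for Ctsk and below every one for Oscar.

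Pigment cells make Gpnmb and ganglion cells make Spp1. The 11 pigment cell markers summed to 23.2 to 95.2 CPM in TET-MYCN libraries and 22.8 to 51.4 CPM in Rb-null libraries, with 5 of 6 tested positive and none of the list at 0 in every library. Pmel, a melanosome matrix protein, had 10.9, 1.90, 6.52 and 26.8 CPM in TET-MYCN libraries against 9.72, 3.10, 6.22 and 5.51 CPM in Rb-null libraries. Tyrp1, a melanin synthesis enzyme and the gene of that list with the smallest p, had 10.8, 2.98, 6.29 and 20.5 CPM in TET-MYCN libraries against 5.598, 2.31, 2.29 and 3.90 CPM in Rb-null libraries (log2 fold change 1.51 ± 0.54, adjusted p = 0.237, edgeR). Both genes had the order of most members within the TET-MYCN group, 4 highest and 2 lowest, and both overlapped between groups. For Tyrp1, TET-MYCN 1, 3 and 4 were above every Rb-null library, as for 9 of the 10 members. Ganglion cell markers summed to 428 to 568 CPM in TET-MYCN libraries and 372 to 803 CPM in Rb-null libraries, with 10 of 11 negative. The part of these cells in the members' levels was not tested.

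The genes most like Mmp12 over the 8 libraries, by Pearson r of log2 CPM among genes with a mean of at least 1 CPM, were Anp32a (0.983), Mt1 (0.978), 1700056E22Rik (0.974), Adk (0.973), Wif1 (0.971) and Gatm (0.970). Those most like the members' mean were Eef1b2 (0.993), Plau (0.988), Eef1a1 (0.986), Mylk2 (0.985), Mdfic (0.985) and Bmp4 (0.984). Plau, the urokinase protease gene, had 13.6, 2.29, 5.22 and 15.3 CPM in TET-MYCN libraries against 1.78, 1.76, 1.05 and 2.08 CPM in Rb-null libraries. It was high in TET-MYCN 1 and 4 and only just above the Rb-null libraries in TET-MYCN 2. All of these r values include the difference between the groups.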

How the data were processed

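Libraries of peripheral retina, 4 of TET-MYCN and 4 of Rb-null mice, were grouped by their genotype labels. The authors deposited raw counts of reads per gene as whole numbers, 1 table for each library. CASAVA 1.8.2, TopHat2 2.0.8b, HTSeq 0.5.4p3 and the build mm9 are listed per the submitters' processing notes. How the tools were run, strand included, is not given in the sources used here, and reads of overlapping or antisense genes cannot be separated. Reads placed in no gene or in several made up 28.3% to 31.7% per library and were left out.

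Of 23284 genes, 15106 were kept by filterByExpr with the group, scaled by TMM and tested with edgeR's quasi-likelihood test (edgeR 4.0.16, glmQLFit with robust = TRUE, R 4.3.3), with group as the only term and Benjamini-Hochberg adjustment over all genes tested. Log2 fold changes are given ± SE, and a positive value means higher in TET-MYCN. This SE is the absolute log2 fold change divided by the square root of the test's F statistic, as edgeR gives none itself. CPM used TMM-scaled library sizes, and log2 CPM for correlations a prior count of 2. RPKM (counts per kilobase and CPM unit) used merged exon lengths of another build, GENCODE vM21 on GRCm38, so no mm9 coordinates are given. Marker sums were compared by two-sided exact permutation over 70 arrangements. Intervals of the marker sums come from inverting this permutation test, so they reflect the spread between libraries. The binomial counting intervals and the floor of 3 counts cover counting error only. Counts of replicates differed by more than sampling noise in every pair. Alternatives were DESeq2 1.42.0, DESeq2's size factors, total counts, no filter, at least 1 CPM in 4 libraries, limma-voom (limma 3.58.1), a replicate block and each library left out.

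The members and the 25 gene lists (306 of 308 entries found in the files) were chosen with earlier results of these data known. Named were all members, the up to 4 most abundant genes of a list, the up to 2 with the smallest p, any gene past the threshold, and the 6 genes most like Mmp12 and like the members' mean. Examples are given from these, and genes outside the rule are marked. In simulated counts of 14996 genes for this comparison, edgeR found 79 of the 100 genes that were changed 2-fold, 96 of the 100 changed 4-fold, and 2 unchanged genes. DESeq2 found 87 and 98 of them and 44 unchanged genes, and limma-voom 73 and 99 and 3 unchanged genes. The changed genes were drawn from those above a minimum mean count, and each gene was simulated independently of the others. There DESeq2 was run after the filter on low counts, unlike in the real data. These shares may not hold for genes with low counts or for genes that vary together between libraries. Python 3.11.15 and matplotlib 3.10.9 drew the figures. Some genes that the naming rule takes are not reported here.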

Additional observations from a re-analysis of the deposited data

Results flagged for a closer look

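In 144 groups of 4 libraries checked, for the genes and sums named here, 9 held a library far from the other 3, and chance gives about 1 in 20. The distance was judged against the range of the 4 values, so a small gap can be flagged. Among the members the flagged value was Gpnmb in Rb-null 2, at 5.04 CPM, with the other Rb-null libraries at 4.73 to 4.78 CPM. All 4 TET-MYCN libraries were above that value. This gap was small and rests on 83 counts, against 93, 73 and 71 in Rb-null 1, 3 and 4. Itga9, an integrin alpha chain, was at 13.3 CPM in Rb-null 1, with the others at 15.98 to 16.1 CPM. Mitf was at 6.86 CPM in Rb-null 2, with the others at 6.35 to 6.41 CPM. Mmp9 was at 10.2 CPM in TET-MYCN 2, with the other TET-MYCN libraries at 5.22 to 5.87 CPM. The transcript 1700056E22Rik was at 1.43 CPM in TET-MYCN 2, with the other TET-MYCN libraries at 1.73 to 1.76 CPM. Glul, the glutamine synthetase gene of Müller glia, was at 1074 CPM in TET-MYCN 3, with the other TET-MYCN libraries at 609.9 to 659 CPM. Oscar was at 0.112 CPM in TET-MYCN 3, with the other TET-MYCN libraries at 0.494 to 0.562 CPM. Ly6c2 was at 0.0655 CPM, which is 1 count, in Rb-null 3 and at 0 elsewhere. Eef1a1, a translation elongation factor gene, was at 2482 CPM in Rb-null 3, with the others at 2813 to 2863 CPM.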

How the results depend on the processing

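Each member's log2 fold change or ratio kept its direction and stayed within the spread between replicates in all 138 alternative values. With 1 library left out, the log2 fold change ranged over 6.21 to 6.93 for Mmp12, 4.58 to 5.57 for Spp1, 3.08 to 3.99 for Gpnmb and 1.37 to 2.28 for Itgax. Mrc1 and Ms4a7 did not pass the filter in 2 of 8 such fits. Counts of calls moved far more. Of all genes, 9 were called, against 17 with no filter on low counts, 536 by DESeq2, 0 by limma-voom (2262 at an unadjusted p under 0.05), 3 with a replicate block, and 0 to 230 with 1 library left out. Of the members 1 was called, against 0 with no filter or by limma-voom, 10 by DESeq2 and 0 to 7 with 1 library left out. The difference in the resident marker sum ranged from -26.1 to 16.7 CPM with 1 library left out, and was 16.7, 5.75 and 7.47 CPM without Rb-null 2, TET-MYCN 1 and TET-MYCN 2. The pan-macrophage sum ranged from -76.8 to 56.5 CPM, and was 56.5, 22.1 and 36.5 CPM without the same libraries. The cause of these shifts was not tested. Deviations from the group means had r of -0.295 to -0.0402 between libraries with the same replicate number. Between libraries with different numbers r was -0.244 to 0.448. Such deviations sum to 0 within a group of so few libraries, so these r values cannot show whether the numbers pair them. With the replicate block the sums differed by -4.85 CPM (exact permutation p = 0.875) and -12.9 CPM (exact permutation p = 1). The block called 1 member, as without it. At this depth 3 counts are worth up to 0.202 CPM, so Rb-null levels of Mmp12, Atp6v0d2 and Mrc1 are loosely known.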

Other observations

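Genes of antigen presentation and complement were read beside the members. H2-Ab1, an MHC class II chain, had 5.49, 2.38, 2.86 and 3.12 CPM in TET-MYCN libraries against 1.58, 0.789, 0.786 and 1.28 CPM in Rb-null libraries. Every TET-MYCN library was above every Rb-null library, with TET-MYCN 1 and 4 the 2 highest (log2 fold change 1.62 ± 0.34, adjusted p = 0.151, edgeR). C3, the central complement component, had 7.59, 1.77, 2.47 and 6.19 CPM in TET-MYCN libraries against 1.37, 1.03, 1.77 and 0.942 CPM in Rb-null libraries. TET-MYCN 1 and 4 were again the 2 highest, and the lowest TET-MYCN value stood at the highest Rb-null value (log2 fold change 1.802 ± 0.47, adjusted p = 0.164). Of 8 dendritic cell markers tested 6 had positive and 2 negative log2 fold changes (median 0.68), and the 10 on the list summed to 16.7 to 35.03 CPM in TET-MYCN and 13.9 to 18.9 CPM in Rb-null libraries. The 10 chemokines and cytokines tested were evenly split, 5 positive and 5 negative, and their median was -0.02. Csf1, a growth factor of macrophages, had 24.2, 15.3, 16.5 and 29.2 CPM in TET-MYCN libraries against 14.3, 21.9, 12.2 and 15.6 CPM in Rb-null libraries, with groups that overlapped.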
